A study of Mus musculus with 75 samples.

Results

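Type I interferon response genes are the genes that a cell switches on when interferon alpha or beta reaches it, and 49 of them were followed here in mouse embryonic fibroblasts given tumor necrosis factor (TNF). The members were a list of gene symbols matched to the Ensembl identifiers of the deposited tables, with a minimum mean of 0.5 CPM (read counts scaled to library size) over all 75 libraries. All 49 listed genes met that minimum, out of 45706 gene entries, of which 13656 met it. The fibroblasts came from C57BL/6 embryos and lacked p53, c-Rel and RelA (p53-/-crel-/-rela-/-) in every group. They carried the retroviral vector pBABE-puro, either empty (EV) or with RelA, wild type (RelA-WT) or mutated. The labels do not spell out the mutant names. RelA-dTA1 and RelA-dTAD are read here as lacking the transactivation domain TA1 and the transactivation domains as a whole, and RelA-DB and RelA-dCterm are kept as names. The labels RelA-TA2_CI and RelA-TA2_S467A name changes in TA2, which 3 further constructs combine with each other or with dTA1. All cells spent a night in 0.5% serum, and RNA was taken before TNF (0 h) and after 0.5, 1, 3 and 8 h with 10 ng/ml. The replicated constructs, RelA-WT, EV, RelA-dTA1 and RelA-dTAD, had 2 libraries at each time, 1 in each of the 2 deposited sets, and the 7 other constructs had 1. Whether the libraries of a group came from separate cultures is not stated, and p-values therefore cover the spread between these libraries alone, which may be technical. No cells were kept without TNF to the later times, so a change after TNF includes any change with time alone.

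Type I interferons bind a receptor built from IFNAR1 and IFNAR2. The kinases TYK2 and JAK1 on this receptor phosphorylate STAT proteins such as STAT2, which joins IRF9 in a complex named ISGF3 that binds interferon-stimulated response elements (ISREs) upstream of target genes. Interferon regulatory factors such as IRF1 bind the same kind of element without STATs, and NF-kB, of which RelA is a subunit, binds separate kappaB sites and takes part in switching on the interferon beta gene. The products of the target genes sense foreign nucleic acid, block viral replication or adjust the signal itself.

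Upstream sequences are shown for the 4 members with the largest rise at 8 h in RelA-WT, and the 2 with a mean of at least 10 CPM and the smallest absolute change there, among those with an entry in the RefSeq promoter table, so that the letters can be set beside the levels. They are the 250 bases before the annotated start from RefSeq (GRCm38.p6), 5′ to 3′ on the gene's strand, and capitals mark matches to an ISRE core (GAAANNGAA), a STAT dimer site of the GAS type (TTCNNNGAA) or a kappaB site in either of 2 forms (GGNNTTTCC and GGNNTTCCC), searched on both strands. Slfn5 lies at chr11:82951852-82952101 on the plus strand, Oas3 at chr5:120777660-120777909 on the minus strand, Slfn2 at chr11:83064862-83065111 on the plus strand and Epsti1 at chr14:77903989-77904238 on the plus strand. Trim25 lies at chr11:88999153-88999402 and the Adar start with matches at chr3:89730468-89730717, both on the plus strand.
Slfn5: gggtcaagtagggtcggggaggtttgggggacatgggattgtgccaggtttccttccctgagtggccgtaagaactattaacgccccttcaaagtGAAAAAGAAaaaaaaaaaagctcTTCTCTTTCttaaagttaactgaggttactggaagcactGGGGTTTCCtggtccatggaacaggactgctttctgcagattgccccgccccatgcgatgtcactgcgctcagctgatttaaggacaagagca
Oas3: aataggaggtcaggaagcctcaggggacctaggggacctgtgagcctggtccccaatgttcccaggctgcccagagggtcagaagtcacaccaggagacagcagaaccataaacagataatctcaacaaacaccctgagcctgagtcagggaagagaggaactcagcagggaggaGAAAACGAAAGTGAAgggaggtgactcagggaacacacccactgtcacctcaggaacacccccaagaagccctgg
Slfn2: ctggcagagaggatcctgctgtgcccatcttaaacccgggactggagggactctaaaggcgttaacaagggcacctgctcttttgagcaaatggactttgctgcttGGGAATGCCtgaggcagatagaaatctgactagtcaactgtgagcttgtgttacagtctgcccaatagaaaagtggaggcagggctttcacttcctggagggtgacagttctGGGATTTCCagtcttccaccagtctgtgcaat
Epsti1: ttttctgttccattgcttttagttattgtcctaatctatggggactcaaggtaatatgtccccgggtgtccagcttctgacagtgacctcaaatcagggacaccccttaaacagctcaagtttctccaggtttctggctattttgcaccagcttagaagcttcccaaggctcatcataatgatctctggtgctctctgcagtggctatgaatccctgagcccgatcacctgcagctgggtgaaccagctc
Trim25: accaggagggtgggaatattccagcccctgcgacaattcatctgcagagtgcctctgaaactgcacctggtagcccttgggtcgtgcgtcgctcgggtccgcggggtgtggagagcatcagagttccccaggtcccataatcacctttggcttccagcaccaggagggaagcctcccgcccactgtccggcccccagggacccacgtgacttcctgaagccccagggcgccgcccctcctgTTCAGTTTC
Adar: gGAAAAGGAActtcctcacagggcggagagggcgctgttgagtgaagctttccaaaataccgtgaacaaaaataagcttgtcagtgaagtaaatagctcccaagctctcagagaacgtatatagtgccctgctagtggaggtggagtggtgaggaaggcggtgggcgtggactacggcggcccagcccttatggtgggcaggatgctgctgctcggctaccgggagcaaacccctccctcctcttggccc
Slfn5 holds 2 ISRE cores, whose first bases lie 155 and 132 bases before the start, and 1 kappaB match at 93. Oas3 holds 2 ISRE cores, at 75 and 69 bases before the start, which overlap. Slfn2 holds 2 kappaB matches, at 144 and 32 bases before the start, and no ISRE core in this window, while Epsti1 holds no match. Trim25 holds an ISRE core 9 bases before the start, and the Adar start shown holds one 249 bases before it.

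Of the 49 members, 39 had an entry in the RefSeq table. From 250 bases before to 50 after a start, 22 of the 39 (56.4%) held the ISRE core, against 9.76% of 27025 genes. A kappaB match of either form was found in 7 (17.9%, against 12.4% of genes): Isg15, Parp12, Slfn5, Slfn2, Rsad2, Ifit3 and Slfn8. A GAS match was found in 6 (15.4%, against 9.55%). Form 1 of the kappaB letters was in 6 members (15.4%, against 6.62%) and form 2 in 3 (7.69%, against 6.7%). A match describes these letters and is not a measured site. Several members are neighbours in the genome (mm10): Ifit1, Ifit2, Ifit3 and Ifit3b on chromosome 19, Oas1a, Oas1g, Oas2 and Oas3 on chromosome 5, Slfn2, Slfn5 and Slfn8 on chromosome 11, Rsad2 with Cmpk2 on chromosome 12, and Parp14, Dtx3l and Parp9 on chromosome 16. Reads can be split between near-identical paralogs in the Ifit, Oas1, Slfn and Trim30 families. Parp9 and Dtx3l overlap on opposite strands, and how the counting treated strand is not given in the sources used here, so these members are uncertain one by one.

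Counted reads per library ran from 4422396 to 6915919 in set 1 and from 10440202 to 22908738 in set 2. Rela was at 15.5 to 29.6 CPM in the EV libraries and at 524 CPM or more in every library of a RelA construct. At 0 h it was at 524 in RelA-dCterm and 647 in RelA-DB. At 8 h it was at 1461 and 1770 CPM in RelA-WT, 1759 and 2617 in RelA-dTA1 and 3907 and 6717 in RelA-dTAD. It was then at 3850 in RelA-TA2_CI-dTA1 and 3863 in RelA-TA2_CI_S467A-dTA1. The part of these gaps in the 8 h differences between constructs was not tested. The fibroblast gene Col1a1 was between 10600 and 17050 CPM in all 75 libraries. Of 8 macrophage markers, 3 passed the low-count filter (Cd14, Cd68 and Csf1r, at most 5.40, 4.33 and 2.18 CPM), while Ptprc, Itgam and Adgre1 reached at most 0.377, 0.246 and 0.0643 CPM. The 8 summed to 3.61 to 7.36 CPM in RelA-WT libraries, 4.18 to 8.61 in RelA-dTA1, 4.10 to 7.06 in RelA-dTAD and 4.04 to 8.13 in EV. Of 6 plasmacytoid dendritic cell markers, Siglech was at 0 throughout, Ly6d, Ccr9 and Tlr7 reached at most 0.838 CPM, and the other two were high: Tcf4 (209 to 452 CPM) and Bst2, itself one of the 49 members (63.5 to 613 CPM). Of 6 epithelial markers, which summed to 2.40 to 14.7 CPM, Krt5 reached at most 0.0635 CPM. In bulk RNA, fewer cells with a transcript and less transcript per cell cannot be told apart. The median log2 change of all genes tested was farthest from 0 at −0.032 (RelA-WT, 8 h against 0 h) among the comparisons below. Pairs of CPM values are those of sets 1 and 2, in that order, changes are log2 fold changes ± standard error, and a gene rose, fell or differed where edgeR's adjusted p over 13665 genes was under 0.05.

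Before TNF, the interferon response genes were lower without RelA. All 49 had a lower fitted level in EV than in RelA-WT at 0 h (median −1.08). Of them 29 passed the test, against 0.563% of all genes tested that were lower, and 34 passed with the replicate set as a block. The 29 included 6 of 8 genes of the OAS group, which make or act beside the nucleotide signal that starts RNA decay, 5 of 7 nucleic acid sensors, all 4 of the PARP and Dtx3l group, 7 of 12 other antiviral effectors, 3 of 4 of the TRIM and Sp100 group, 2 of 3 Schlafen genes and 2 of 7 signalling genes. None of the 4 IFIT genes passed by edgeR, though all 4 had an unadjusted p under 0.05. Ifit3 (−1.22, adjusted p = 0.0697) passed by DESeq2 (0.00685), and its difference was −1.62 without the EV libraries of set 2. By edgeR without the low-count filter its adjusted p was 3.01e-19 at the same fold, far below that of the main fit. The cause was not tested, and that fit is not read as support. Over all members DESeq2 called 34. The number rested on 1 set of EV libraries: it was 3 without the EV libraries of set 1 and 30 without those of set 2, and it was 10 and 15 without the RelA-WT libraries of set 1 and set 2. Within set 1 the median difference of EV from RelA-WT was −1.45 and within set 2 it was −0.78, and all 49 were below RelA-WT in both.

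Oas1g, one of the synthetases that make 2-5A from double-stranded RNA, was at 5.40 and 4.16 CPM in RelA-WT at 0 h and at 0.277 and 0.481 in EV. These values rest on 34 and 53 reads in RelA-WT and on 2 and 6 in EV, so the groups do not overlap but the size of the difference, −3.53 ± 0.52 (adjusted p = 0.000606), is limited by depth. Oas1a, its neighbour, was at 31.6 and 22.7 CPM in RelA-WT and at 1.94 and 6.89 in EV, a difference of −2.51 ± 0.36 (adjusted p = 0.000543). Without the EV libraries of set 1 the Oas1a call was lost (adjusted p = 0.0562). Slfn2, a Schlafen gene known for its part in lymphocyte quiescence, was at 6.99 and 9.03 CPM in RelA-WT and at 0.553 and 2.08 in EV. Its difference of −2.47 ± 0.48 (adjusted p = 0.00828) lost its call without the RelA-WT libraries of set 1 (0.0853) or set 2 (0.362) or the EV libraries of set 1 (0.507). Oas3, the longest synthetase, had no read in the EV library of set 1 and was at 0.160 CPM in that of set 2, against 1.27 and 1.49 in RelA-WT, and did not pass (adjusted p = 0.147, 0.0256 with the replicate set as a block).

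**Figure D1:**
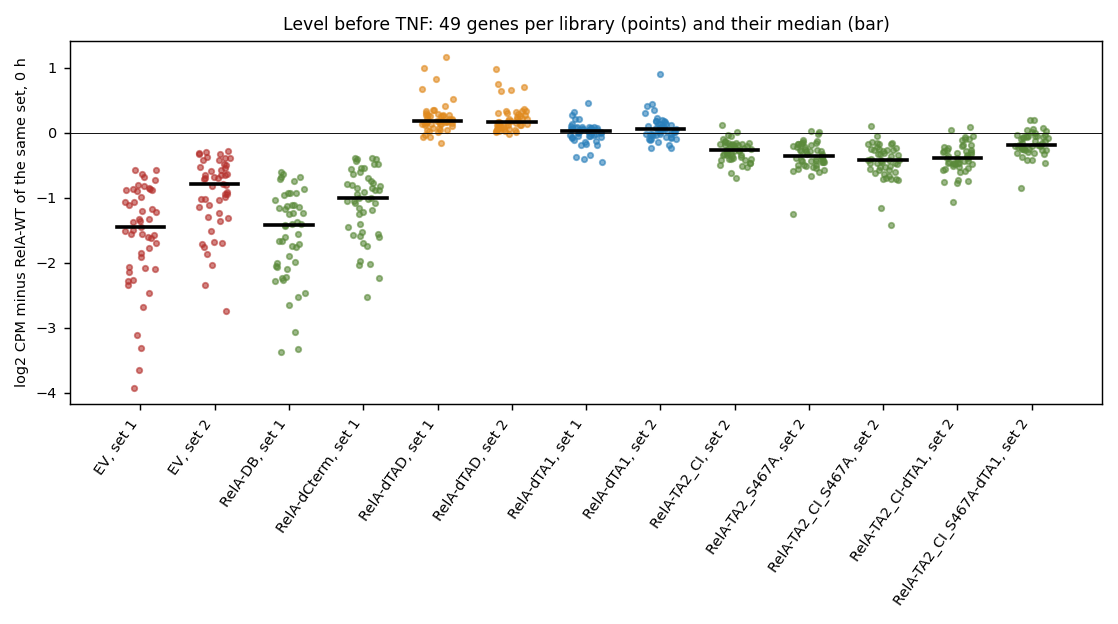
Log2 difference of each of the 49 members from the RelA-WT library of the same set at 0 h, by construct, with 1 point per gene and library and a bar at the median. The EV, RelA-DB and RelA-dCterm points lie below 0 for all 49 genes, while most RelA-dTAD points lie just above it.

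A RelA without its transactivation domains went with levels near those of RelA-WT. At 0 h none of the 49 members differed between RelA-dTAD and RelA-WT by edgeR, against 0% of all genes tested that were higher. At an unadjusted p under 0.05, 2 were higher and none lower, and DESeq2 called none. The median difference was 0.17, 47 of 49 lay above RelA-WT in the fit, and within sets the medians were 0.18 (45 above) and 0.16 (48 above). Compared with EV at 0 h, a comparison added after the data were seen, 36 of 49 were higher in RelA-dTAD (median 1.29), against 0.637% of all genes. Their number was 17 without the RelA-dTAD libraries of set 1, 17 without those of set 2, and 14 without the EV libraries of set 1. Oas1g was at 7.80 and 6.70 CPM in RelA-dTAD, and Oas1a at 35.3 and 26.4. Slfn2 was at 14.1 and 17.9 CPM, above both RelA-WT libraries, without passing against them (0.99).

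For RelA-dTA1 at 0 h, none differed from RelA-WT by edgeR (none at an unadjusted p under 0.05 and none by DESeq2), against 0% of all genes that were lower. The median difference was 0.01. Oas1g was at 6.56 and 4.57 CPM there and Slfn2 at 7.40 and 12.1, on both sides of the RelA-WT values.

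Among the constructs with 1 library per time, which allow no test, RelA-DB and RelA-dCterm stood lowest at 0 h. The median difference from the RelA-WT library of set 1 was −1.42 in RelA-DB, with 38 of 49 members more than 2-fold lower (3.08% of all genes with a mean of at least 0.5 CPM). It was −0.998 in RelA-dCterm, with 24 members past that fold (2.89% of genes). All 49 were below RelA-WT in both. Rela itself was at 647 and 524 CPM in these libraries and at 1143 to 1770 in the RelA-WT libraries, and the part of that gap in the result was not tested. The 5 TA2 constructs, all of set 2, lay closer to RelA-WT. Medians were −0.27 in RelA-TA2_CI (0 members past 2-fold, 0.615% of genes), −0.36 in RelA-TA2_S467A (1 member, 0.19%), −0.41 in RelA-TA2_CI_S467A (2 members, 0.286%), −0.38 in RelA-TA2_CI-dTA1 (1 member, 0.549%) and −0.18 in RelA-TA2_CI_S467A-dTA1 (0 members, 0.33%). These 5 are measured against a single RelA-WT library at 0 h, whose member median was 0.48 above that of the RelA-WT library at 0.5 h in the same set.

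Nearly all of the genes rose after TNF in RelA-WT cells, but late. After 0.5 h no member differed from 0 h by edgeR (1 higher and 2 lower at an unadjusted p under 0.05, and none by DESeq2), against 0.776% of all genes that rose. With the replicate block 1 was lower, Stat2 (−0.77, adjusted p = 0.0235). After 1 h 1 rose, Slfn2, against 2.55% of genes. After 3 h 31 rose (median 0.84, 10.5% of genes), and after 8 h 47 rose (median 1.51, 15.8% of genes). None fell at these times without the block. The members outside the 47 were Ifi27, a mitochondrial and nuclear-envelope protein gene (−0.66 ± 0.30, adjusted p = 0.102, and 3.64e-05 with the replicate block), and Trim25 (0.37 ± 0.14, adjusted p = 0.0566, and 0.0342 with the block). Leaving out 1 set of RelA-WT libraries gave 22 to 25 rising genes at 3 h and 38 to 39 at 8 h. In the 2 sets taken singly, the median change at 8 h was 1.48 and 1.42. The summed level of 6 endothelial markers was also higher after TNF in RelA-WT. It was 48.9 and 56.1 CPM at 0 h, 162 and 136 at 3 h and 186 and 114 at 8 h. At 8 h the sum was 187 and 145 CPM in RelA-dTA1, 213 and 195 in RelA-dTAD and 171 and 161 in EV, from 37.6 to 55.2 at 0 h. Of the 6, Flt1, a VEGF receptor gene, rose at 3 h and 8 h in RelA-WT (3.49 and 3.54), Kdr did not pass there, Tek fell at 3 h (−0.82), and Pecam1, Cdh5 and Emcn were at most 0.792, 0.821 and 0.492 CPM in any library. The part of endothelial cells in the members' changes was not tested.

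**Figure D2:**
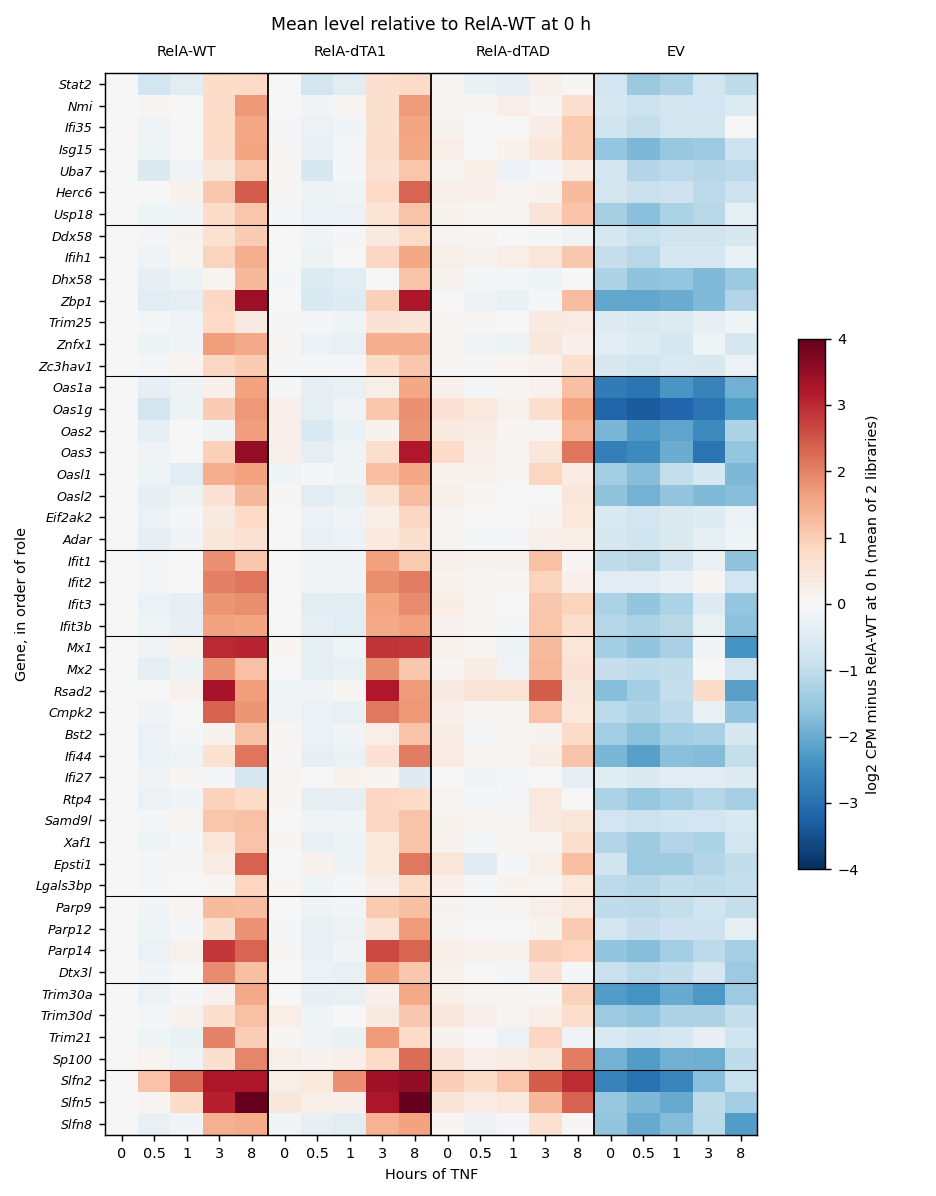
Mean log2 CPM of the 49 members over the 2 libraries of each replicated group, relative to RelA-WT at 0 h, by role, construct and time. The columns of RelA-WT and RelA-dTA1 at 3 and 8 h are warm, and RelA-dTAD at 8 h lies above 0 for most members. The EV columns are mostly cool from 0 h on.

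The genes did not all follow 1 course. A comparison of 8 h with 3 h in RelA-WT, added after the data were seen, found 17 members higher at 8 h (4.02% of genes) and 3 lower (3.62% of genes, 7 with the replicate block), with a median of 0.40. The 3 that fell again were Rsad2 (−1.62 ± 0.29, adjusted p = 0.000739), which makes the antiviral nucleotide ddhCTP, Ifit1 (−0.77) and Dtx3l (−0.71). Rsad2 was at 56.1 and 44.3 CPM at 0 h, 486 and 490 at 3 h, and 150.0 and 168 at 8 h in RelA-WT, so both libraries had lost most of the rise by 8 h. Those still climbing included all of Oas1a, Oas2 and Oas3, the sensors Ifih1, Dhx58 and Zbp1, and the signalling genes Herc6, Ifi35 and Nmi. Leaving out a set of RelA-WT libraries left 6 or 8 of the first kind and 1 of the second.

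**Figure D3:**
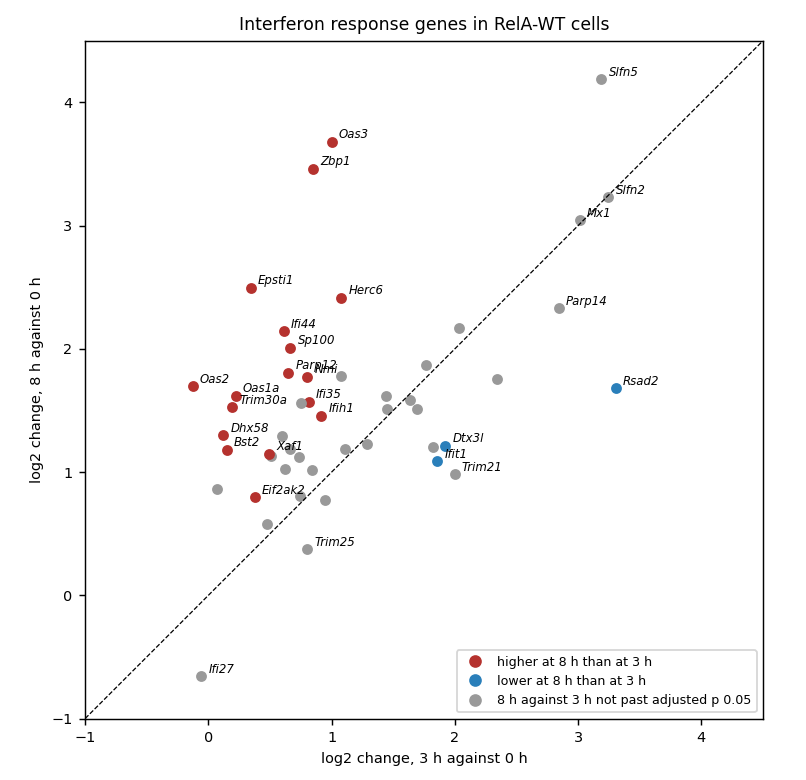
Change at 3 h (x axis) and at 8 h (y axis) against 0 h in RelA-WT, log2, with 1 point per member and the diagonal as a dashed line. Rsad2, Ifit1 and Dtx3l lie below the diagonal, and Zbp1 and Oas3 well above it.

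Without TA1, the response was of the same order. In RelA-dTA1, 1 member rose at 1 h (Slfn2, 1.41% of genes), 28 at 3 h (median 0.70, 9.58% of genes) and 47 at 8 h (median 1.53, 19.4% of genes). The 8 h exceptions were Ifi27 (−0.63, adjusted p = 0.101, and 2.34e-05 with the replicate block) and Trim21 (0.78). The TNF change of no member differed from that in RelA-WT at 3 or 8 h by edgeR (none at an unadjusted p under 0.05, none by DESeq2), against 0% of all genes that were lower at 3 h and 0% at 8 h. The median differences were −0.10 and −0.03. These tests do not show that the changes are equal. Without the RelA-dTA1 libraries of set 2, 16 members rose at 3 h.

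Without all transactivation domains, fewer genes rose. In RelA-dTAD 6 of 49 rose at 3 h (2.28% of genes, 12 with the replicate block): Ifit2, Ifit1, Cmpk2, Mx2, Slfn2 and Rsad2, by 0.75 to 2.08. Leaving out a set of RelA-dTAD libraries left 0 to 1 of them. At 8 h 19 rose (median 0.46, 24.4% of genes), a share of members above that of all genes, and 9 to 11 without 1 set. The TNF change was lower than in RelA-WT for 1 member at 1 h (Slfn2, −2.13, 0.6% of genes), for 11 at 3 h (median −0.72, 2.5% of genes, 19 with the block) and for 22 at 8 h (median −0.95, 5.8% of genes, 33 with the block). At 3 h this was 6 and 5 without the RelA-WT libraries of set 1 and set 2, and 3 and 4 without those of RelA-dTAD. At 8 h it was 14 without the RelA-WT libraries of set 2 and 7 without the RelA-dTAD libraries of set 1.

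Without RelA, 1 member rose at 3 h in EV, Rsad2 (2.46 ± 0.32, adjusted p = 4.17e-05), against 3.02% of genes. The number was 4 with the replicate block. At 8 h 12 rose (25.6% of genes) and 2 fell (23.1% of genes), a rising share of members no larger than that of all genes. The 2 that fell, Ifit1 (−0.58) and Dtx3l (−0.49), did not pass with the block (adjusted p = 0.0649 and 0.0817). Without the EV libraries of set 1 the rising genes numbered 5. The TNF change was lower than in RelA-WT for 12 members at 3 h (median −0.83, 2.8% of genes, 15 with the block). It was lower for 27 at 8 h (median −1.22, 7.9% of genes, 31 with the block). The 3 h number was 7 without the EV libraries of set 2, and the 8 h number ran from 21 to 28 when 1 set was left out. The differences at 0 h and those in TNF change use the same EV and RelA-WT libraries at 0 h, and the EV and RelA-dTAD comparisons share the RelA-WT libraries.

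**Figure D4:**
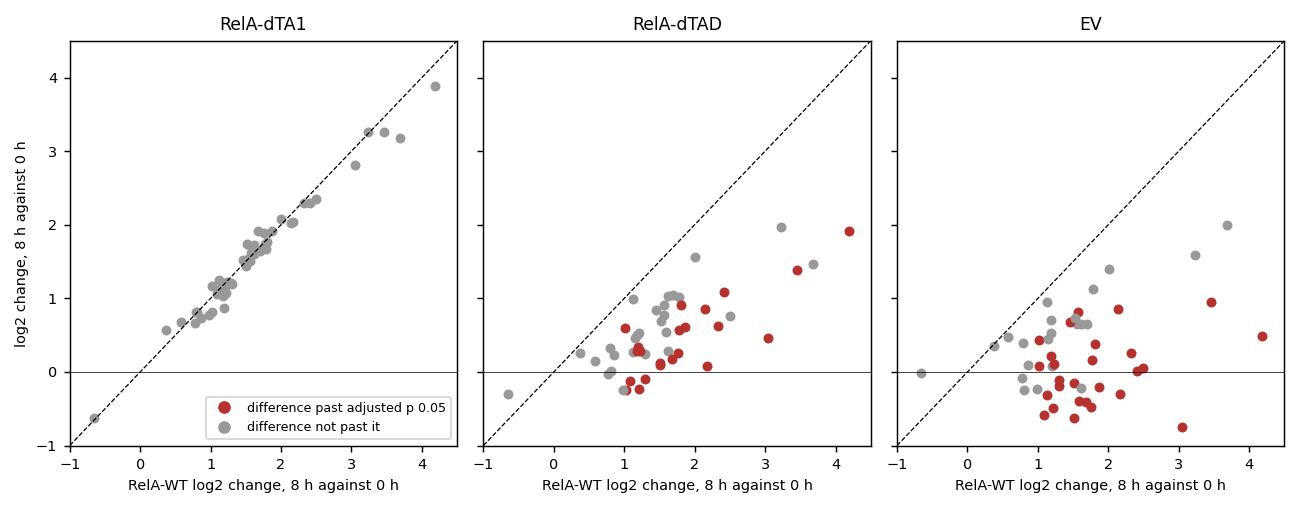
Log2 change at 8 h in RelA-dTA1, RelA-dTAD and EV (y axes) against that in RelA-WT (x axes) for the 49 members, with the diagonal dashed and members whose change differed from RelA-WT in red. RelA-dTA1 points follow the diagonal, and the 22 red points of RelA-dTAD and 27 of EV lie below it.

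The signalling group and the ISG15 system came up slowly in RelA-WT, 4 of 7 at 3 h and all 7 at 8 h. ISG15 is a ubiquitin-like protein, Uba7 encodes its activating enzyme, Herc6 a ligase for it in mice, and Usp18 the protease that removes it and damps the receptor. Herc6 was at 38.4 and 52.6 CPM at 0 h, 87.7 and 103.9 at 3 h and 240.0 and 246 at 8 h, so each time stood apart from the last. At 8 h it was at 214 and 244 CPM in RelA-dTA1, 108 and 109 in RelA-dTAD and 18.2 and 35.8 in EV. It rose by 2.41 ± 0.23 in RelA-WT, and the change was lower in EV (−2.40, adjusted p = 1.57e-05) and in RelA-dTAD (−1.33, adjusted p = 0.00643), the latter not without the RelA-WT libraries of set 1 (0.0853) or the RelA-dTAD libraries of set 1 (0.0630) or set 2 (0.0789). Its 3 h rise was also lost without the RelA-WT libraries of set 1 (0.0941). Nmi, which encodes a STAT-interacting protein, went from 26.7 and 23.5 CPM at 0 h to 96.5 and 73.8 at 8 h in RelA-WT, 87.5 and 78.0 in RelA-dTA1, 43.1 and 37.0 in RelA-dTAD and 16.1 and 18.5 in EV. The RelA-dTAD values lie between those of RelA-WT and EV without overlap, and the change was lower by 1.2 in RelA-dTAD and by 1.61 in EV. Usp18 rose in all 4 constructs, by 1.13 in RelA-WT, 1.25 in RelA-dTA1, 0.99 in RelA-dTAD and 0.95 in EV, and Isg15, with the highest mean CPM per kilobase of exon among the members (413), rose by 1.56 in RelA-WT and by 1.51 in RelA-dTA1. Stat2, a subunit of ISGF3, rose by 0.81 in RelA-WT at 8 h.

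Of the nucleic acid sensors, 5 of 7 rose at 3 h and 6 at 8 h. Zbp1, a sensor of Z-form nucleic acid that can start necroptosis, moved late. It was at 11.4 and 8.56 CPM at 0 h, 19.2 and 16.2 at 3 h and 106 and 109 at 8 h in RelA-WT, which is a rise of 3.46 ± 0.33 (adjusted p = 1.95e-08), of which 2.61 ± 0.31 came after 3 h. By 8 h Zbp1 stood at 82.3 and 107 CPM in RelA-dTA1, 17.7 and 31.7 in RelA-dTAD and 3.96 and 4.65 in EV, so that RelA-WT and RelA-dTA1 overlap and the other 2 lie below them. The change was lower by 2.08 in RelA-dTAD and by 2.51 in EV. These calls were lost without the RelA-dTAD libraries of set 1 (adjusted p = 0.0724) and without the EV libraries of set 2 (0.0961). Znfx1, a helicase that binds viral RNA at mitochondria, was at 121 and 126 CPM at 0 h and peaked by 3 h at 385 and 404 in RelA-WT. At 8 h it was at 361 and 339 CPM there, 292 and 390.1 in RelA-dTA1, 131 and 151 in RelA-dTAD and 70.3 and 90.3 in EV, with differences of −1.39 in RelA-dTAD and −1.66 in EV. Ddx58 and Ifih1, which encode the RNA sensors RIG-I and MDA5, rose by 1.02 and 1.46 at 8 h. Their changes were lower in EV by 0.94 and 0.78, and in RelA-dTAD Ddx58 was lower by 1.27 while Ifih1 rose by 0.84.

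In the group of OAS genes and other enzymes of double-stranded RNA, 3 of 8 rose at 3 h and all 8 at 8 h. Few of them differed in TNF change at 8 h: none was lower in RelA-dTAD (5.8% of all genes), and 1, Oasl2, was lower in EV (−1.40, 7.9% of all genes). In a group of 8 these numbers are near the shares of all genes. Oas3 and Oas1g also had few reads in EV, which limits the test. Oas3 was at 1.27 and 1.49 CPM at 0 h, 3.36 and 2.38 at 3 h and 24.2 and 12.4 at 8 h in RelA-WT. The 8 h libraries differed widely from each other and still stood clear of 0 h, a rise of 3.68 ± 0.55 (adjusted p = 1.52e-05). Oas3 at 8 h was at 15.0 and 13.4 CPM in RelA-dTA1, 6.77 and 6.46 in RelA-dTAD, and 0.233 and 0.528 in EV, where the reads were too few for a fold. The RelA-dTAD difference of −2.21 did not pass (adjusted p = 0.0546, 0.00289 with the block). Oas1g went from 5.40 and 4.16 CPM at 0 h to 11.1 and 8.77 at 3 h and 17.2 and 15.3 at 8 h in RelA-WT (1.78 ± 0.35 at 8 h). It reached 16.4 and 17.8 CPM in RelA-dTA1, 15.2 and 13.9 in RelA-dTAD, but 0.931 and 0.845 in EV. The 3 h rise of Oas1g lost its call without either set of RelA-WT libraries (adjusted p = 0.228 and 0.221). Oas1a reached 90.7 and 74.0 CPM at 8 h in RelA-WT, 75.5 and 80.1 in RelA-dTA1, 65.5 and 59.5 in RelA-dTAD and 5.82 and 8.34 in EV. For Oas1g and Oas1a, the RelA-dTAD libraries at 8 h were below those of RelA-WT by less than they were above those of EV. Eif2ak2, which encodes the kinase PKR that halts translation, rose by 0.79 in RelA-WT, 0.82 in RelA-dTA1, 0.33 in RelA-dTAD and 0.39 in EV, and Adar, an RNA-editing deaminase, by 0.58 in RelA-WT and 0.48 in EV.

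All 4 IFIT genes, whose products bind foreign RNA ends and block translation, rose at 3 h and at 8 h in RelA-WT. No rise passed at 8 h in RelA-dTAD or EV. In RelA-dTAD the means at 0 h and 8 h were 214.5 and 327 CPM for Ifit3 and 95.0 and 137 for Ifit3b. They were 422 and 387 for Ifit1. Ifit2 was at 102 and 88.4 CPM at 0 h, 402 and 367 at 3 h and 473 and 376 at 8 h in RelA-WT. In RelA-dTAD it was at 184 and 167 CPM at 3 h and back at 106 and 113 at 8 h, against 112 and 96.7 at 0 h. In EV it was at 68.2 and 72.9 CPM at 0 h, 90.2 and 105 at 3 h and 56.8 and 54.5 at 8 h. RelA-dTAD thus rose and returned, while RelA-WT and RelA-dTA1 (371 and 409 CPM at 8 h) stayed up. The 8 h change was 2.17 ± 0.18 in RelA-WT, lower by 2.09 in RelA-dTAD (adjusted p = 3.87e-06) and by 2.47 in EV (adjusted p = 2.76e-07). Ifit3 went from 184 and 166 CPM to 648 and 626 at 8 h in RelA-WT, 577 and 718 in RelA-dTA1, 283 and 371 in RelA-dTAD and 41.2 and 86.4 in EV. Its difference in EV was −2.07. That in RelA-dTAD (−1.25) lost its call without any 1 of the 4 sets involved (adjusted p = 0.0753 to 0.394) and with all 75 libraries in the fit (0.0531).

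Among the 12 other antiviral effectors, 6 rose at 3 h and 11 at 8 h in RelA-WT. Mx1, a dynamin-like GTPase gene that is known to be defective in C57BL/6 mice, was at 12.1 and 15.9 CPM at 0 h, 95.0 and 132 at 3 h and 112 and 121 at 8 h. Mx1 at 8 h was at 75.5 and 131 CPM in RelA-dTA1, 12.7 and 29.3 in RelA-dTAD and 1.40 and 4.54 in EV. The RelA-dTAD libraries overlap those of their own 0 h (13.5 and 18.1), after 26.8 and 41.9 at 3 h. Mx1 rose by 3.04 ± 0.40 in RelA-WT, with a change lower by 2.59 in RelA-dTAD (adjusted p = 0.00243) and by 3.79 in EV (adjusted p = 0.000220). Epsti1, named for its response to stroma, stayed at 2.38 and 2.00 CPM at 3 h from 1.91 and 1.57 at 0 h and reached 9.59 and 9.73 at 8 h in RelA-WT, 6.41 and 10.1 in RelA-dTA1, 4.93 and 3.66 in RelA-dTAD and 0.466 and 1.27 in EV. Its difference in EV (−2.44) lost its call without any 1 of the 4 sets involved (adjusted p = 0.0587 to 0.179). The RelA-dTAD difference (−1.74) passed only with the replicate block (0.00873) among the fits with the low-count filter. Rsad2 and Cmpk2, adjacent genes that act in the same nucleotide pathway, rose by 3.30 and 2.34 at 3 h. Bst2, which encodes the virion tether tetherin, rose at 8 h in RelA-WT (1.18), RelA-dTA1 (1.03) and EV (0.70).

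All 4 genes of the PARP and Dtx3l group, ADP-ribosyltransferases and a ubiquitin ligase partner, rose at 3 h and at 8 h in RelA-WT, and the 8 h change of all 4 was lower both in EV and in RelA-dTAD. Parp14 was at 91.8 and 88.7 CPM at 0 h, 619 and 663 at 3 h and 480 and 422 at 8 h in RelA-WT, a rise of 2.84 ± 0.24 at 3 h (adjusted p = 5.23e-09). Parp14 at 8 h was at 384 and 535 CPM in RelA-dTA1, 148 and 180 in RelA-dTAD and 29.6 and 43.7 in EV, so that each of the last 2 lies below every RelA-WT library. The differences were −1.71 ± 0.32 in RelA-dTAD (adjusted p = 0.000766) and −2.07 ± 0.34 in EV (adjusted p = 9.95e-05). Parp12 climbed later, from 129 and 122 CPM at 0 h to 191 and 198 at 3 h and 436 and 437 at 8 h in RelA-WT. It reached 394 and 417 CPM in RelA-dTA1, 247 and 257 in RelA-dTAD and 82.6 and 109 in EV. Its change was lower by 0.90 in RelA-dTAD, not without the RelA-dTAD libraries of set 1 (adjusted p = 0.0831), and by 1.43 in EV.

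Of the TRIM and Sp100 group, 2 of 4 rose at 3 h and all 4 at 8 h. Sp100, a nuclear body protein gene, was at 4.61 and 5.10 CPM at 0 h, 6.93 and 8.30 at 3 h and 17.8 and 21.2 at 8 h in RelA-WT. At 8 h it was at 17.2 and 32.4 CPM in RelA-dTA1, 17.0 and 24.4 in RelA-dTAD and 1.16 and 4.43 in EV, so the 3 RelA constructs overlap. It rose in all 4 constructs, by 2.01 in RelA-WT, 2.08 in RelA-dTA1, 1.56 in RelA-dTAD and 1.39 in EV. The EV rise rested on the library of set 2. In EV the 0 h mean was 1.19 CPM (standard deviation 0.124), near the 1.16 of set 1 at 8 h. The EV libraries held 24 reads in all at 0 h and 47 at 8 h. Trim30a, a TRIM gene of rodents, was at 64.8 and 76.2 CPM at 0 h, 76.6 and 83.4 at 3 h and 188 and 218 at 8 h in RelA-WT, 165 and 248 in RelA-dTA1, 116 and 153 in RelA-dTAD and 19.6 and 33.2 in EV. It rose by 1.53 ± 0.28 in RelA-WT and by 0.69 in RelA-dTAD. The difference of −0.84 did not pass, but did with the replicate block (adjusted p = 0.0356). It also did in the fit without the low-count filter, which is not read as support, as for Ifit3.

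The 3 Schlafen genes rose at 3 h and at 8 h in RelA-WT, and among them were the earliest and the largest rise of the 49. Slfn2 was at 6.99 and 9.03 CPM at 0 h, 20.3 and 15.6 at 0.5 h, 35.5 and 42.4 at 1 h, 83.3 and 70.3 at 3 h and 77.7 and 75.1 at 8 h in RelA-WT. No other member passed at 1 h, where its change was 2.27 ± 0.35 (adjusted p = 0.000123). In RelA-dTAD it was at 14.6 and 20.5 CPM at 1 h, overlapping the 14.1 and 17.9 at 0 h, and at 54.6 and 71.5 at 8 h, while EV reached 3.72 and 4.75 at 8 h. RelA-dTAD thus rose later, and its 8 h change of 1.97 ± 0.33 did not pass the test against the 3.23 ± 0.36 of RelA-WT (adjusted p = 0.0858, 0.0148 with the block). Slfn5, a nuclear Schlafen gene, was at 3.02 and 2.75 CPM at 0 h, 5.28 and 4.47 at 1 h, 25.7 and 26.0 at 3 h and 53.7 and 50.4 at 8 h in RelA-WT, the largest rise of the 49 (4.19 ± 0.41, adjusted p = 3.47e-08). By 8 h Slfn5 stood at 48.8 and 78.2 CPM in RelA-dTA1, 12.3 and 19.5 in RelA-dTAD and 0.698 and 1.48 in EV. The EV libraries overlap those of EV at 0 h (1.11 and 0.721). The change was lower by 2.27 ± 0.55 in RelA-dTAD (adjusted p = 0.00672) and by 3.70 ± 0.81 in EV (adjusted p = 0.00214). The first call was lost without the RelA-WT libraries of set 2 (0.0794) or either set of RelA-dTAD (0.0658 and 0.0599), and the second without the EV libraries of set 1 (0.0853).

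**Figure D5:**
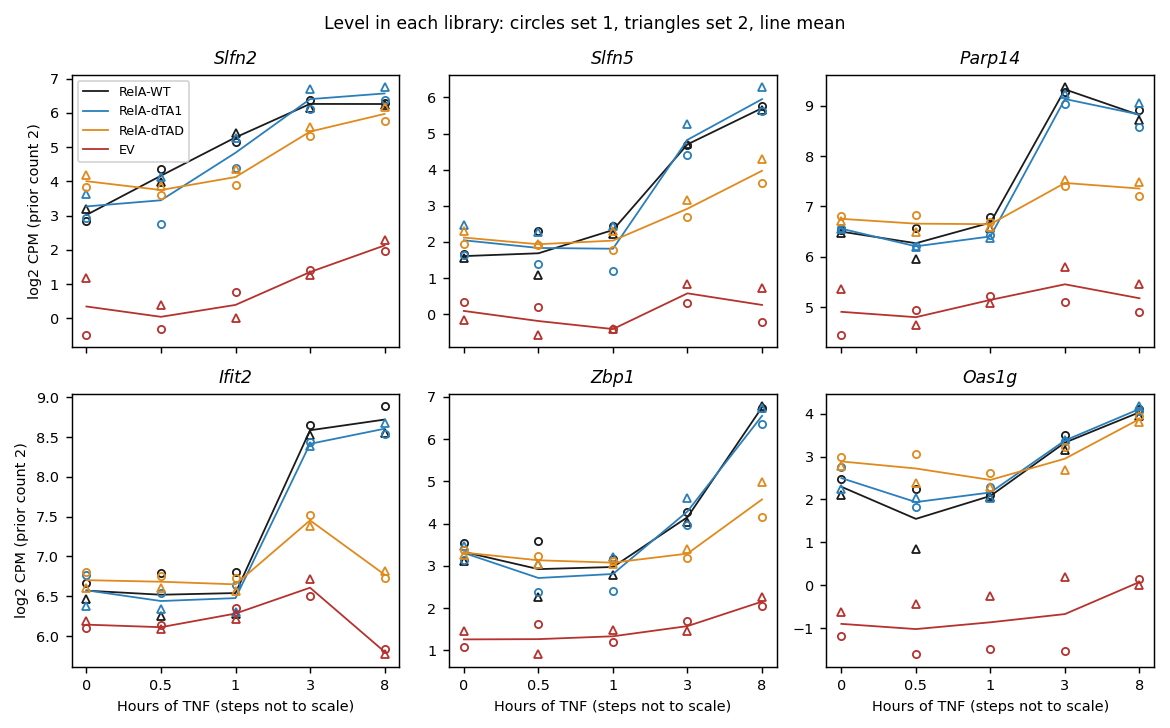
Log2 CPM of single members by hours of TNF (steps not to scale) in the 4 replicated constructs, with circles for set 1, triangles for set 2 and a line through the group means. Slfn2 climbs from 0.5 h in RelA-WT, Ifit2 in RelA-dTAD returns to its 0 h level by 8 h, and EV stays lowest at 8 h.

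The TA2 constructs with TA1 had median changes at 8 h somewhat above that of RelA-WT, as far as 1 library each can show. That of RelA-WT was 1.51 in the fit over both sets. These constructs started from median levels below the RelA-WT library of set 2 at 0 h. At 8 h the median change of the members was 1.8 in RelA-TA2_CI (44 of 49 more than 2-fold higher, 5.58% of genes), 1.81 in RelA-TA2_S467A (42, 5.21%) and 1.87 in RelA-TA2_CI_S467A (44, 6.39%), beside 41 and 40 members past that fold in the RelA-WT libraries of set 1 and set 2. It was 1.27 in RelA-TA2_CI-dTA1 (31, 8.26%) and 1.23 in RelA-TA2_CI_S467A-dTA1 (33, 7.04%). At 3 h the members' levels stood 0.74 and 0.87 below RelA-WT at the median in these last 2 constructs, and 0.20, 0.06 and 0.23 below it in the 3 with TA1. Ifit2 reached 368, 356, 135 and 169 CPM at 8 h in RelA-TA2_CI, RelA-TA2_S467A, RelA-TA2_CI-dTA1 and RelA-TA2_CI_S467A-dTA1, from 76.1 to 80.8 at 0 h. Mx1 was at 125 CPM in RelA-TA2_CI, 33.8 in RelA-TA2_CI-dTA1 and 50.6 in RelA-TA2_CI_S467A-dTA1.

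RelA-DB and RelA-dCterm had smaller changes. The median at 8 h was 0.76 in RelA-DB (16 members past 2-fold, 11% of genes) and 0.41 in RelA-dCterm (10, 11.1%). Their members stood 2.49 and 2.01 below RelA-WT of set 1 at the median by then. Ifit2 went from 63.8 to 48.0 CPM in RelA-DB and from 78.0 to 67.8 in RelA-dCterm, beside 68.2 and 56.8 in EV of the same set.

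The genes that carry the interferon signal were read from lists chosen beside the members. Interferon transcripts were scarce: Ifnb1 had 196 reads over all 75 libraries, at most 17 in 1 library, with 4 and 8 in the RelA-WT libraries at 1 h, and the 6 other interferon genes on the list had 1 to 37 reads each over all libraries. None could be tested. All 7 receptor and kinase genes (Ifnar1, Ifnar2, Ifngr1, Ifngr2, Jak1, Jak2 and Tyk2) rose in RelA-WT at 3 h (10.5% of all genes did) and at 8 h (15.8%). At 8 h 6 of them had a lower change in RelA-dTAD (5.8% of all genes) and 5 in EV (7.9%). Jak2 rose by 2.05 and Ifnar2 by 1.09. Of the transcription factors, 8 of 9 could be tested, and 4 rose at 3 h and 6 at 8 h, against the same 10.5% and 15.8% of all genes. Among the 6 were Irf7 (1.74 ± 0.39) and Irf5 (2.33). Irf9, the DNA-binding subunit of ISGF3, did not pass (−0.02).

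Irf1 rose before most of the members. Slfn2 was also higher at 0.5 h than at 0 h in RelA-WT (means of 17.9 and 8.01 CPM), without passing by edgeR. Irf1 was at 53.5 and 55.7 CPM at 0 h, 508 and 449 at 0.5 h and 936 and 952 at 1 h in RelA-WT. It was at 481 and 468 at 3 h and 350.1 and 295 at 8 h. It was thus highest at 1 h, when Slfn2 was the 1 member that had passed. Its 1 h change was 0.44 in RelA-dTAD (adjusted p = 0.506) and −0.03 in EV, and did not pass in either. Irf1 in RelA-dTAD was at 49.5 and 55.2 CPM at 0 h, 102 and 103 at 3 h and 35.7 and 39.1 at 8 h. In EV it was at 37.6 and 44.1 CPM at 0 h, 46.1 and 50.7 at 3 h and 18.15 and 19.3 at 8 h. In RelA-dTA1 its rise at 0.5 h was smaller than in RelA-WT by 1.3 ± 0.22 (adjusted p = 0.0211). Of the feedback genes, 3 of 5 rose (15.8% of all genes did) and 2 fell at 8 h in RelA-WT. The share of all genes that fell there is not given here. Socs1, an inhibitor of JAK kinases, rose by 1.67 at 3 h. Of 8 genes that act upstream of interferon beta, 5 rose at 8 h in RelA-WT (15.8% of all genes did).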

How the data were processed

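Polyadenylated RNA of 75 libraries was made with a stranded kit and read as single ends, per the labels' protocols. The deposited tables hold read counts for each gene; cutadapt 1.9.1, STAR, featureCounts 1.5.0, DESeq2 and the mm10 build are named, per the submitters' processing notes. The strand setting is not given in the sources used here. The members, role groups and other gene lists were chosen with earlier results of these data known, and the tests of 8 h against 3 h and of RelA-dTAD against EV were added after the data were seen.

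Counts of the 4 replicated constructs (40 libraries) were tested with edgeR 4.0.16 in R 4.3.3: filterByExpr (13665 genes, all 49 members kept), TMM scaling, 1 mean per construct and time, a robust quasi-likelihood test (20 residual degrees of freedom, common dispersion 0.0224), and Benjamini-Hochberg adjustment at 0.05. The 7 constructs with 1 library per time were only described, as log2 CPM with a prior count of 2, over genes with a mean of at least 0.5 CPM, with a 2-fold mark. The test of 8 h against 0 h in RelA-WT was tried on counts simulated with the dispersion of 0.0224 for every gene and no set effect. The other comparisons were not tried on simulated counts.

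Genes given in full were, per role group, the 2 with the largest 8 h change in RelA-WT among those past the threshold at 3 h or 8 h, the 3 with the largest EV difference at 0 h among those past it, and any member that fell in RelA-WT. Rsad2, which fell between 3 h and 8 h, and the single values of other members were chosen after their values were seen. Promoters were those of the 4 largest rises and the 2 smallest changes with a table entry and a mean of at least 10 CPM for the latter. Replicate numbers follow the 2 deposited sets, per the labels. The deviations of same-numbered libraries correlated in all 190 pairs of groups (0.357 to 0.668), so the numbers pair the samples. The main fit and all runs that left out a replicate did not use this pairing. A fit with the set as a block was an alternative. The others were RLE scaling, DESeq2 1.42.0, no low-count filter, all 75 libraries in the fit, a stricter member minimum, prior counts, and leaving out each replicate. No 2 libraries held identical counts. Depth was 4422396 to 6915919 reads in set 1 and 10440202 to 22908738 in set 2, which limits genes near 1 CPM or below.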

Additional observations from a re-analysis of the deposited data

Results flagged for a closer look

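The results here were picked out because the TNF change of a member differed between constructs by a test of the difference itself in edgeR, with 2 libraries per group. In RelA-dTAD 11 members at 3 h and 22 at 8 h had a lower TNF change than in RelA-WT. Of all genes tested, 2.5% and 5.8% did. In EV 12 members at 3 h and 27 at 8 h had a lower change, against 2.8% and 7.9% of all genes. The RelA-dTAD numbers at both times and the EV number at 3 h were smaller in every run that left out a replicate. At 8 h the RelA-WT libraries and the 0 h libraries of each construct enter all of these differences.

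The 8 h differences from RelA-WT were as follows, EV first and RelA-dTAD second. Among signalling genes, Herc6 differed by −2.40 and −1.33 and Nmi by −1.61 and −1.2. Among sensors, Zbp1 differed by −2.51 and −2.08 and Znfx1 by −1.66 and −1.39. Of the IFIT genes, Ifit2 differed by −2.47 and −2.09 and Ifit3 by −2.07 and −1.25. Of the other effectors, Mx1 differed by −3.79 and −2.59, and Epsti1 by −2.44 in EV alone by this test. Parp14 differed by −2.07 and −1.71 and Parp12 by −1.43 and −0.90. Slfn5 differed by −3.70 and −2.27. Some of these calls were lost when 1 set of libraries of a construct was left out: in EV those of Zbp1, Epsti1 and Slfn5, and in RelA-dTAD those of Herc6, Zbp1, Ifit3, Parp12 and Slfn5. Whether EV and RelA-dTAD differ from each other in these changes was not tested.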

How the results depend on the processing

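No result changed direction under any alternative run, and RLE scaling, DESeq2, all 75 libraries, a stricter member minimum and other prior counts moved no count by over 1.5 times except 1 count in EV. With the replicate block, 12 members rose at 3 h in RelA-dTAD and 4 in EV, 19 had a lower change in RelA-dTAD at 3 h, 7 fell from 3 h to 8 h in RelA-WT, and 4 calls were made at 0.5 or 1 h in place of 2. Also with the block, no member fell at 8 h in EV in place of 2, Stat2 fell at 0.5 h in RelA-WT and RelA-dTA1, and Ifi27 fell at 8 h in the 3 RelA constructs and had a higher change in EV. The other counts of members stayed within 1.5 times. Without the low-count filter, these became 12, 9, 24, 9 and 13, and 38 (RelA-dTAD, 8 h) and 31 (EV, 3 h) had a lower change, 44 were lower in EV at 0 h and 1 was higher in RelA-dTAD at 0 h. The fit without the filter also gave a far smaller adjusted p than the main fit at the same fold for Ifit3 in EV at 0 h (3.01e-19). Its counts are therefore not read as support. EV at 3 h gave 2 with RLE scaling and 4 with DESeq2.

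Leaving out 1 replicate gave 16 to 19 rising members at 3 h in RelA-dTA1, 0 to 1 at 3 h and 9 to 11 at 8 h in RelA-dTAD, and 5 to 10 at 8 h in EV. Lower changes numbered 3 to 6 at 3 h and 7 to 16 at 8 h in RelA-dTAD, and 7 to 10 at 3 h in EV. Members lower in EV at 0 h numbered 3 to 30, those higher in RelA-dTAD than in EV 14 to 35, and those higher or lower at 8 h than at 3 h in RelA-WT 6 to 8 and 1 to 1. Of 85 results on single members, 17 lost their call when a replicate was left out, and 14 gained one under some alternative. For each, the cause was not tested, apart from the smaller number of samples. A lone library left in a group is assumed to vary like the other groups. Depth limits members near 1 CPM or below in EV at 0 h, such as Oas3, Oas1g, Epsti1, Slfn5, Sp100 and Slfn2.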
